A study of Mus musculus with 6 samples.

Results

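The caveolin and cavin genes were followed in soleus (Sol) muscle of running mice. The set holds 8 of the 24411 genes listed: the caveolins Cav1, Cav2 and Cav3, the cavins Ptrf (cavin 1), Sdpr (cavin 2), Prkcdbp (cavin 3) and Murc (cavin 4), and Ehd2, an ATPase of the caveolar neck. The members were taken by symbol, under the older names that the count table uses. The family was chosen by the level of Murc, which was higher in LSD1-mKO, so the values of Murc in that comparison are given as a description and without a test. All 8 members were above 3 counts in every mouse and all 8 passed the filter on low counts.

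RNA came from the Sol of 3 WT and 3 LSD1-mKO male mice of the C57BL/6 strain, 1 library per mouse. LSD1-mKO mice carried Lsd1 flox/flox and the ACTA1-CreERT2 transgene, in which the human ACTA1 promoter drives a tamoxifen-dependent Cre in differentiating and differentiated muscle cells. WT mice were Lsd1-floxed without CreERT2. Both groups entered the wheel cages at 8 weeks of age, were familiarized for 3 days, then received tamoxifen (75 mg/kg, 5 days), and spent 38 days in all on voluntary wheel running (VWR). No sedentary mice are in the series, and the presence of CreERT2 and the loss of LSD1 cannot be told apart.

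Caveolae are flask-shaped pits of the plasma membrane that are abundant in muscle fibers, endothelial cells and adipocytes. Caveolins are inserted in the membrane and oligomerize, cavins form a coat on its cytoplasmic face, and Ehd2 holds the pit at the surface. Cav3 and Murc are the muscle forms of the caveolins and cavins, Cav1, Cav2, Sdpr and Prkcdbp are best known from endothelium and other non-muscle cells, and Ptrf is needed for caveolae in muscle and non-muscle cells alike. In fibers caveolae buffer membrane tension, take part in signalling and are linked to the formation of transverse tubules.

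Library totals ran from 8940206 to 13798059 estimated counts, with the lowest total in WT 1. Kdm1a, the gene of LSD1, measured 33.6 to 40.5 CPM (counts scaled to a common library size with TMM factors) in WT and 14.6 to 16.6 in LSD1-mKO. The muscle fiber markers, 10 genes led by Acta1, summed to 91560 to 121600 CPM in WT and 99750 to 110100 in LSD1-mKO, and none of them was at 0 in every mouse. Markers of other cells were also present, as whole muscle was used. The 12 endothelial markers summed to 797 to 1068 CPM in WT and 791 to 946 in LSD1-mKO. The sums were 140 to 211 and 153 to 193 for 8 adipocyte markers, 606 to 762 and 662 to 734 for 8 markers of smooth muscle and pericytes, 1415 to 4593 and 1461 to 2944 for 8 fibroblast markers, and 24.4 to 103 and 29.1 to 67.3 for 6 immune markers. No marker of these lists was at 0 in every mouse. WT 1 had the lowest sum of the 6 mice for the fibroblast, immune, adipocyte and smooth muscle lists. In bulk RNA, fewer cells of a type and less RNA per cell cannot be told apart.

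The promoters of the muscle forms are shown first, since Murc and Cav3 were the members whose groups did not overlap in TMM-scaled level. Each is the 250 bases before the RefSeq start site in GRCm38, read 5′ to 3′ on the plus strand, for Murc chr4:48663264-48663513 and for Cav3 chr6:112459255-112459504. Capitals mark matches on either strand to the E-box CANNTG, which muscle regulatory factors bind, to TATAAA, the core of the TATA box, and to AAGGTCA, the core motif of the estrogen-related receptors (ERR).
Murc: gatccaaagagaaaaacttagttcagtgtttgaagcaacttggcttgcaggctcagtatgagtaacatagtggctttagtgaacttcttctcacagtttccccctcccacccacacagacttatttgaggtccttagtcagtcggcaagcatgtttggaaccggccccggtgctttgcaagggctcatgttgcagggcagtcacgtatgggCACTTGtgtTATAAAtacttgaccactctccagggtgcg
Cav3: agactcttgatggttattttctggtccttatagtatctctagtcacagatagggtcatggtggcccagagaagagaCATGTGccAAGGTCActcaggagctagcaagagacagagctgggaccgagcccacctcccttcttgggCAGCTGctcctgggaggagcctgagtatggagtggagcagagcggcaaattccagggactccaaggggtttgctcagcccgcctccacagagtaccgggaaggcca

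The window of Murc held a TATAAA match that began 30 bases before the start and an E-box at 39 bases. It held no AAGGTCA. The window of Cav3 held AAGGTCA at 166 bases and E-boxes at 174 and 106 bases, and no TATAAA. The marked matches do not overlap each other. Among the promoters of 27025 genes cut to the same length, 66.0% held CANNTG, 13.0% held TATAAA and 4.05% held AAGGTCA. Of the 8 members, 7 had a promoter in the table, and Prkcdbp had none. Cav3 was the member with an AAGGTCA match among these 7. TATAAA was matched in Murc and Cav1, in Cav1 at 221 bases before a start site. E-boxes were matched in Cav1, Cav2, Cav3, Murc and Ehd2, and not in Ptrf or Sdpr. Of the motifs searched, the muscle forms shared the common E-box alone. A match of this kind is a description of the letters and says nothing of binding.

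Cav1 was the most abundant member per transcript length, and the muscle forms followed. In TPM (counts per length of the longest coding transcript, scaled to the same sum in each library), the mean over 6 mice was 276.5 for Cav1, 161.6 for Murc, 141.9 for Cav3, 141.0 for Ptrf, 88.1 for Sdpr, 54.6 for Cav2, 40.3 for Ehd2 and 33.6 for Prkcdbp. The range over mice of Cav1, from 224.0 to 355.1 TPM, lay above that of Murc, from 134.7 to 199.6 TPM. Murc overlapped Cav3, and Cav3 overlapped Ptrf, so that these 3 were not separated by the spread between mice. The lowest value of Ptrf was above the highest of Sdpr, and the lowest of Sdpr above the highest of Cav2. Cav2, Ehd2 and Prkcdbp overlapped their neighbours. All 8 were well expressed: 2.01% of the genes with a known length had a higher mean TPM than Cav1 and 14.4% had a higher one than Prkcdbp. With the mean length of the coding transcripts in place of the longest, Cav1 stood at 493.2 TPM, because its 7 coding transcripts average 1138 bases against 2746 for the longest, and Cav2 at 75.1 passed Sdpr at 65.1. The order of the other members was kept.

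Murc, the muscle cavin, was the gene that picked the family. It lies on chromosome 4 of GRCm38 from 48663514 to 48673502 and has 2 exons. Its level was 136.9, 130.5 and 122.8 CPM in WT 1 to 3 and 186.9, 160.0 and 162.6 CPM in LSD1-mKO 1 to 3. The lowest LSD1-mKO mouse was above the highest WT mouse. The fitted log2 fold change of LSD1-mKO over WT was 0.39, which is 1.31-fold. Across all genes tested, 3.84% had a log2 fold change at least that high. When each mouse was left out in turn the value stayed between 0.31, without LSD1-mKO 1, and 0.43, without LSD1-mKO 2. All of these rest on the values that chose the family and are a description.

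Tests were run on the members other than Murc. Of these 7, 0 had an adjusted p under 0.05 in edgeR's quasi-likelihood test (Benjamini-Hochberg over 12828 genes), where 0.0156% of all genes were called, 0.0078% as higher and 0.0078% as lower. The count was also 0 with limma voom and with DESeq2, which called 0.327% of all genes. At an unadjusted p under 0.05 there was 1 of the 7 with each of these tools, Prkcdbp, with a lower level, against 6.4% of all genes in edgeR, of which the lower ones were 2.88%. That count was 0 without WT 2, without WT 3 or without LSD1-mKO 3. It was 2 without WT 1, without LSD1-mKO 1 or with the library size alone. Without LSD1-mKO 2 it was 1, and this was Cav3 (unadjusted p = 0.0408 from edgeR) rather than Prkcdbp (0.0696 from edgeR). The share of all genes in each of these fits is not given here, so the counts have no background beside them. In fitted level 6 of the 7 were lower in LSD1-mKO and 1 was higher. Their median log2 fold change was -0.20, while 54.8% of all genes were lower and their median was -0.02. WT and LSD1-mKO mice were fully apart for 1 of these 7 (14.3%), Cav3, which was lower, and for 12.7% of all genes tested, 6.1% as lower. Members without overlap, Murc included, numbered 2 of 8. They were 5 of 8 without WT 1, 4 without LSD1-mKO 1 and 1 when scaled by library size alone, where Cav3 overlapped. With a mouse left out fewer mice have to be apart, and the share of all genes is not given for these alternatives. The plot of CPM by mouse shows Murc and Cav3 as the members with separate groups.

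**Figure D1:**
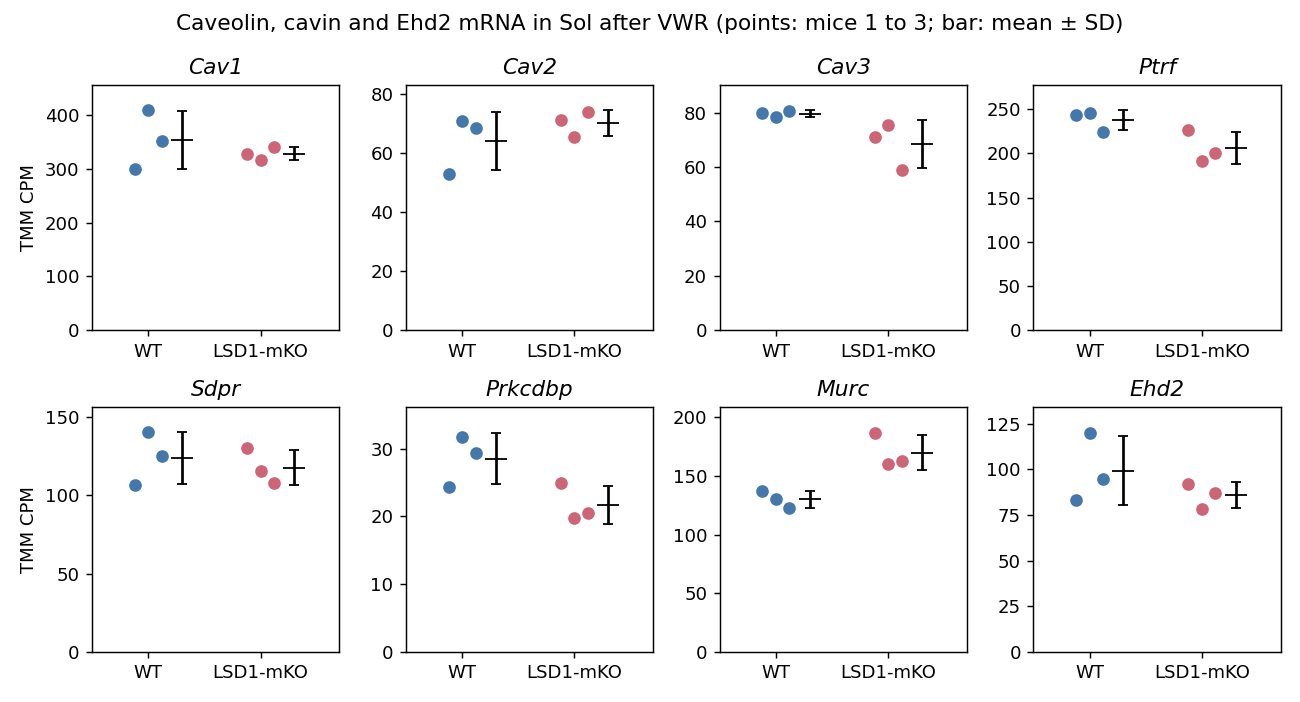
TMM-scaled CPM (vertical axes, linear from 0) of each member in Sol after VWR, with points for WT (blue) and LSD1-mKO (red) mice 1 to 3 and black bars for the mean ± SD. Murc lies above WT in 3 of 3 LSD1-mKO mice and Cav3 below, and the groups of the other 6 members overlap.

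Cav3, the muscle caveolin, lies on chromosome 6 from 112459505 to 112472872. It measured 80.1, 78.2 and 80.7 CPM in WT 1 to 3, the tightest WT values of the family in CPM. The LSD1-mKO mice were at 71.1, 75.6 and 58.8 CPM. On this scale each was below each WT mouse, and the lowest was LSD1-mKO 3. In TPM the groups overlapped, with LSD1-mKO 2 at 144.6 and WT 1 at 141.4. The WT coefficient of variation in TPM was 6.74% for Cav3 and 6.42% for Murc. The fit gave a log2 fold change of -0.22 ± 0.10 (SE; edgeR, adjusted p = 0.766), or -0.12 without LSD1-mKO 3. The exact permutation test of the 3 and 3 values gave p = 0.1 (2-sided), the smallest that this design allows. The 95% interval ran from 0.729-fold to 1.02-fold.

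Cav1, the caveolin that builds caveolae outside striated muscle, lies on chromosome 6 from 17306335 to 17341452. It measured 300.9, 409.9 and 351.8 CPM in WT and 327.7, 316.3 and 340.6 CPM in LSD1-mKO. The LSD1-mKO values lay inside the WT range, and WT 1 was the lowest of all. The fit gave a log2 fold change of -0.11 ± 0.12 (SE; edgeR, adjusted p = 0.884), with a 95% interval from 0.766-fold to 1.12-fold. Cav2, which depends on Cav1 to reach the surface, is its neighbour on the chromosome, from 17281185 to 17289115, with 17219 bases between them. Cav2 measured 52.8, 70.9 and 68.5 CPM in WT and 71.3, 65.4 and 73.7 CPM in LSD1-mKO. Its groups overlapped, and again WT 1 was the lowest. For Cav2 the fitted log2 fold change stood at 0.13 ± 0.12 (SE; edgeR, adjusted p = 0.868), with a 95% interval from 0.901-fold to 1.32-fold. It was 0.01 without WT 1 and 0.21 without WT 2. Both intervals included no change. The value of Cav1 was -0.21 without WT 1 and 0.0095 without WT 2. Within a mouse the TPM ratio of Cav1 to Cav2 was 5.67, 5.76 and 5.11 in WT and 4.58, 4.82 and 4.6 in LSD1-mKO, so that this ratio did not overlap between groups. It was singled out after the values were seen and was not tested.

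Among the cavins, Ptrf, the coat protein on which the other cavins assemble, lies on chromosome 11 from 100956733 to 100970887. It measured 243.4, 245.6 and 224.5 CPM in WT and 227.1, 191.9 and 200.1 CPM in LSD1-mKO. LSD1-mKO 1 was above WT 3, and the other LSD1-mKO mice were below WT. The fit gave a log2 fold change of -0.20 ± 0.09 (SE; edgeR, adjusted p = 0.766), and the 95% interval ran from 0.747-fold to 1.01-fold. Prkcdbp, which binds protein kinase C delta, lies on chromosome 7 from 105480083 to 105482300. It was the least abundant member, at 24.4, 31.7 and 29.4 CPM in WT and 24.9, 19.8 and 20.5 CPM in LSD1-mKO, and the groups overlapped through WT 1 and LSD1-mKO 1. Its log2 fold change of -0.39 was as large in size as that of Murc (standard error 0.13, unadjusted p = 0.0182, adjusted p = 0.680 from edgeR). With 1 mouse left out it ranged from -0.50, without LSD1-mKO 1, to -0.31, without WT 2, with an unadjusted p under 0.05 in 2 of 6 fits, and the lowest adjusted p among the 14 alternatives was 0.2075, without WT 1. Exons of Prkcdbp share 374 bases with Gm45667 on the opposite strand, and whether the counting used strand is not given in the sources used here. Sdpr, a cavin that shapes the endothelial coat, lies on chromosome 1 from 51289126 to 51302960. Sdpr measured 106.8, 140.4 and 125.1 CPM in WT and 130.1, 115.6 and 108.0 CPM in LSD1-mKO, and the groups overlapped throughout. Its log2 fold change of -0.07 was smaller than its standard error of 0.12 (adjusted p = 0.926 from edgeR).

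Ehd2, which stabilizes caveolae at the membrane, lies on chromosome 7 from 15946958 to 15967567. It measured 83.2, 120.1 and 94.6 CPM in WT and 92.3, 78.2 and 87.0 CPM in LSD1-mKO. The spread came mainly from WT 2, the highest mouse. The fit gave a log2 fold change of -0.21 ± 0.14 (SE; edgeR, adjusted p = 0.787), and it was -0.05 without WT 2 and -0.32 without WT 1.

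**Figure D2:**
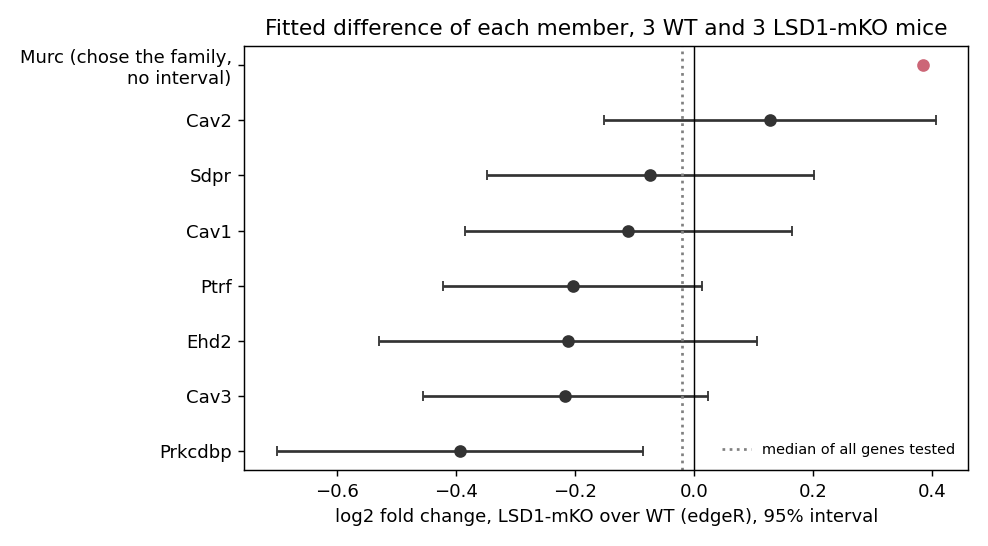
Fitted log2 fold change of LSD1-mKO over WT for each member (horizontal axis, edgeR, 3 and 3 mice), with 95% intervals not adjusted for the number of genes, and a dotted line at the median of all genes tested, -0.02. Murc, which chose the family, is drawn without an interval; of the other 7 intervals, 1 (Prkcdbp) lies below 0 and its adjusted p is 0.680.

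The balance between members was read within each mouse, where library depth cancels. The ratio of Murc to Ptrf in TPM was 0.956, 0.903 and 0.930 in WT 1 to 3 and 1.40, 1.42 and 1.38 in LSD1-mKO 1 to 3. Its mean and SD over 3 mice were 0.930 ± 0.0268 in WT against 1.40 ± 0.0177 in LSD1-mKO, so the mice of a group were closer to each other in this ratio than in either gene alone. Murc made up 35.8%, 31.9% and 32.7% of the TPM of the 4 cavins in WT, and 42.6%, 42.7% and 43.0% in LSD1-mKO. Ptrf was the leading cavin in WT, at 35.2% to 37.5%, and stood at 30.1% to 31.1% in LSD1-mKO. Prkcdbp made up 7.88% to 9.68% in WT and 6.51% to 7.02% in LSD1-mKO. Sdpr overlapped, at 18.8% to 23.1% and 19.2% to 20.7%. Shares of 1 total move against each other, and Murc chose the family, so these values are a description with no test.

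The summed TPM of the 4 cavins overlapped between groups, at 422 ± 47.2 in WT and 427 ± 36.2 in LSD1-mKO (SD, n = 3). The caveolins also overlapped, at 495 ± 86.6 and 451 ± 3.52. The ratio of Murc to Cav3, the muscle pair, was 0.964, 0.939 and 0.857 in WT and 1.48, 1.19 and 1.56 in LSD1-mKO, without overlap. It rests on Murc, which chose the family by its rise, so the separation is a description with no test. The share of gene pairs without overlap is not given. The ratio of Cav3 to Ptrf, in which Murc has no part, overlapped, with 1.01 ± 0.0640 in WT and 1.01 ± 0.161 in LSD1-mKO (SD, n = 3). Cav3 made up 27.8% to 34.9% of caveolin TPM in WT and 25.2% to 32.0% in LSD1-mKO. With the mean transcript length its mean share was 16.4% and 15.0%, against 31.4% and 29.0%.

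**Figure D3:**
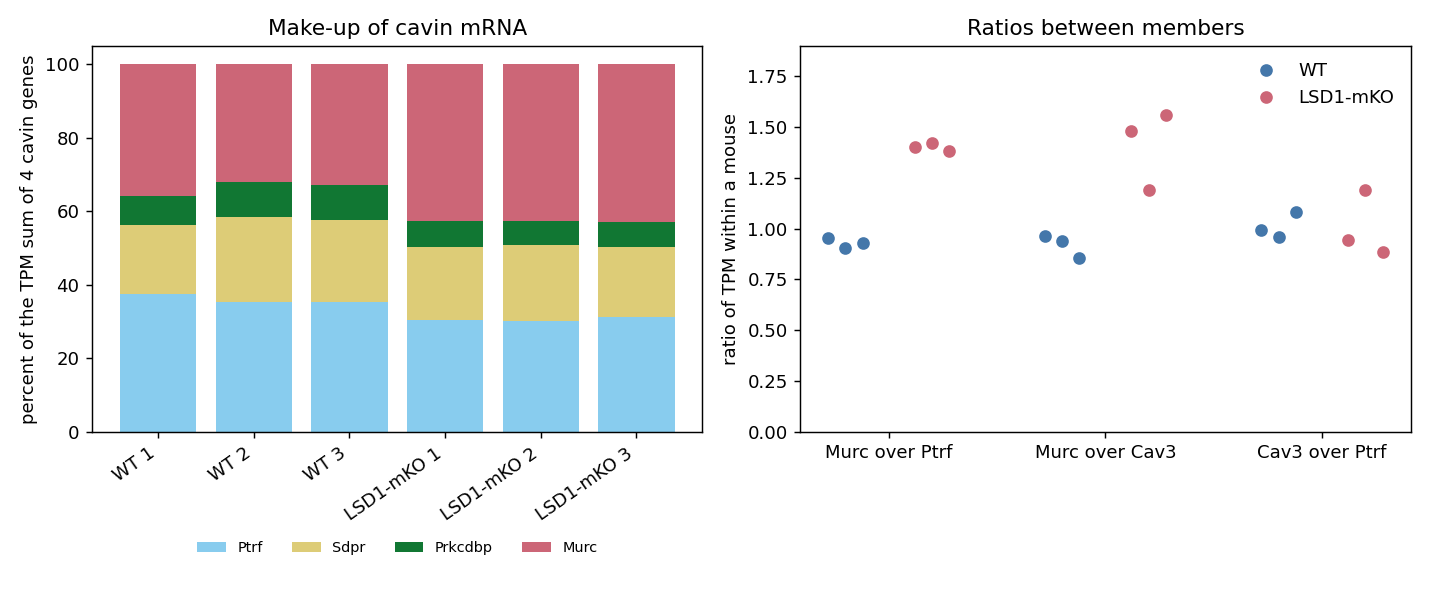
Left, the share of each cavin in the TPM sum of the 4 cavin genes for each mouse (stacked bars, percent); right, ratios of TPM within a mouse (vertical axis from 0) for WT (blue) and LSD1-mKO (red). Murc, which chose the family, takes 31.9% to 35.8% of cavin TPM in WT and 42.6% to 43.0% in LSD1-mKO. The ratio of Cav3 to Ptrf overlaps between groups.

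Members of non-muscle caveolae were set beside the endothelial markers in the same mouse. The 12 markers summed to 796.6, 1068 and 939.0 CPM in WT 1 to 3 and 945.7, 790.8 and 818.6 CPM in LSD1-mKO 1 to 3. WT 2 was the highest and WT 1 the lowest of the WT mice, which was also the order of Cav1, Cav2, Sdpr, Prkcdbp and Ehd2 in WT. The sums of the smooth muscle and pericyte markers and of the immune markers had this order in WT too. The former stood at 605.7, 761.9 and 697.6 CPM in WT 1 to 3. Coefficients against these other sums are not given, so those below cannot be read as particular to endothelium. Cav1 was 37.8%, 38.4% and 37.5% of the marker sum in WT, a coefficient of variation of 1.21% against 15.4% for its CPM. Sdpr was 13.4%, 13.1% and 13.3% of the sum, with a coefficient of 1.04% against 13.5%. For Prkcdbp these were 2.72% against 13.2%, for Cav2 5.60% against 15.3% and for Ehd2 5.63% against 19.0%. For the muscle forms and Ptrf the coefficient in WT was 15.8% per marker sum against 1.59% in CPM for Cav3, 18.8% against 5.45% for Murc and 16.0% against 4.88% for Ptrf. The LSD1-mKO mice did not show the same split. There the coefficient per marker sum was 1.23% against 8.74% in CPM for Murc and 0.892% against 8.92% for Ptrf, and it was also below that of the CPM for Sdpr, Prkcdbp and Ehd2. It was above for Cav1, at 9.39% against 3.70%, for Cav2, at 8.86% against 6.10%, and for Cav3, at 16.0% against 12.7%. With 3 mice a group these coefficients are a description of these libraries.

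Against the muscle fiber markers, the coefficient in WT was above that of the CPM for all 8 members, from 13.1% for Cav3 to 33.8% for Ehd2. In LSD1-mKO it was above for Cav1 and Cav3 and below for the other 6, such as Murc at 3.82% against 8.74%. In LSD1-mKO, Cav1 was 34.7%, 40.0% and 41.6% of the endothelial sum, a wider spread than in WT, and Sdpr was 13.8%, 14.6% and 13.2%. Relative to this sum, Prkcdbp was 2.97% to 3.13% in WT and 2.50% to 2.64% in LSD1-mKO, without overlap. Cav2 was 6.63% to 7.29% and 7.53% to 9.0%, also without overlap. Both genes overlapped in CPM and relative to the muscle fiber sum. The share of all genes without overlap on the endothelial scale is not given, so these values are a description. Murc, which chose the family, was 12.2% to 17.2% of the endothelial sum in WT and 19.8% to 20.2% in LSD1-mKO. Of the 12 endothelial markers, 9 were lower in fitted level in LSD1-mKO, and 54.8% of all genes were lower. Vwf and Robo4, 2 of the 12 (16.7%), did not overlap between groups and were lower, beside 12.7% of all genes, 6.1% as lower. The part of endothelial content in the values of the members was not tested.

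**Figure D4:**
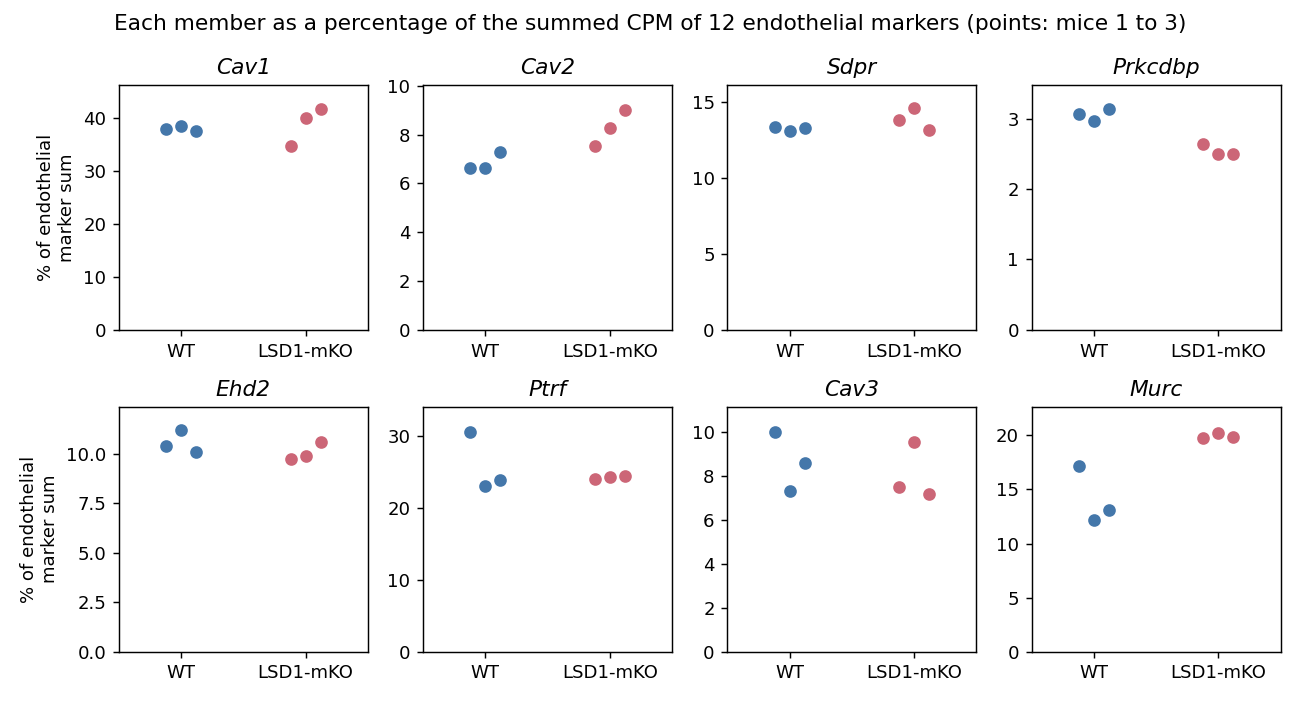
CPM of each member as a percentage of the summed CPM of 12 endothelial markers in the same mouse (vertical axes from 0), with points for WT (blue) and LSD1-mKO (red) mice 1 to 3. In WT, Cav1 lies between 37.5% and 38.4% and Sdpr between 13.1% and 13.4%, while Murc spans 12.2% to 17.2%; in LSD1-mKO, Cav1 spans 34.7% to 41.6% and Murc 19.8% to 20.2%.

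Genes that work with caveolae were examined as 3 lists. Of 21 partners and remodelling proteins of caveolae, 20 were tested and Pacsin1 was too low. In LSD1-mKO 10 had a higher and 10 a lower fitted level; the median was 0.003 on the log2 scale, beside -0.02 for all genes. None passed the adjusted threshold in edgeR, DESeq2 or limma voom. At an unadjusted p under 0.05 in edgeR there was 1, Pacsin2, an F-BAR protein that bends the membrane at caveolae, with 88.5 ± 7.43 CPM in WT and 105 ± 1.61 in LSD1-mKO (SD, n = 3, log2 fold change 0.24, adjusted p = 0.701 from edgeR). Over all genes tested that share was 6.4%. The groups of Pacsin2 and of Ehd1, a relative of Ehd2, did not overlap, which is 10% of the 20, beside 12.7% of all genes. Pacsin3, the muscle F-BAR protein, was the most abundant of the list at 306 TPM, with a log2 fold change of -0.01 (standard error 0.11). It was followed by Rhoa, a GTPase reported to act with Murc, at 195 TPM (log2 fold change -0.03, standard error 0.09).

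Of 12 genes of membrane repair, 11 were lower and 1, Capn2, was higher in fitted level (median -0.13 on the log2 scale), and 54.8% of all genes were lower. None passed the adjusted threshold with any of the 3 tools, and 1 of the 12 had an unadjusted p under 0.05 in edgeR, beside 6.4% of all genes. This was Dysf, which encodes dysferlin, the calcium sensor of sarcolemmal repair and a partner of Cav3. It measured 61.0 ± 4.25 CPM in WT and 50.4 ± 6.33 in LSD1-mKO (SD, n = 3, log2 fold change -0.28, adjusted p = 0.742 from edgeR). Trim72, a repair protein of the sarcolemma that also binds Cav3, was the most abundant at 491 TPM, with a log2 fold change of -0.04 (standard error 0.11). Anxa6 came next at 240 TPM, with a log2 fold change of -0.12 (standard error 0.08). WT and LSD1-mKO mice were fully apart for 2 of the 12 (16.7%), Anxa6 and S100a10, both lower, beside 12.7% of all genes, 6.1% as lower. The fitted values of the 8 fibroblast markers and the 5 immune markers tested were also all below 0, at a median of -0.47 and -0.62 on the log2 scale, and 0 of either had an unadjusted p under 0.05. Their part in the values of the repair list was not tested. Of 10 transverse tubule genes, 4 were higher and 6 lower, with a median of -0.01, none with an unadjusted p under 0.05 in edgeR and none past the adjusted threshold with the 3 tools. Tcap and Bin1, the leading genes of that list at 13600 and 574 TPM, had log2 fold changes of -0.26 (standard error 0.20) and -0.02 (standard error 0.09).

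The genes nearest to Murc over the 6 mice were found by the root mean square difference of log2 CPM, each gene centred on its own mean, among 10205 other genes with a mean of at least 5 CPM. They were Dhx32, an RNA helicase, at 0.0459, Rnf123, a ubiquitin ligase subunit, at 0.0539, Zfp641 at 0.0593, the receptor gene Igf1r at 0.0647 and Syt11 at 0.0675, against a spread of Murc itself of 0.209. No other member of the family was near: Cav2 was the closest at 0.222, in place 3291, and Prkcdbp the farthest at 0.414, in place 9156. A gene at the same level in all 6 mice would lie at 0.209, the spread of Murc. Murc chose the family by its rise, so the distances of the other members from it are a description. Nearest to Cav3, whose own spread was 0.158, were Rab40c, Tgds, Arhgef25, Rpl37rt and E130309D02Rik, from 0.0148 to 0.0396. Ptrf was the member closest to Cav3, at 0.139 in place 1097, and Murc was in place 8803 at 0.331. Since the pattern of Murc over these mice follows the genotype, genes near it differ between the groups by construction.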

How the data were processed

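Sequencing of poly(A) RNA from Sol was single-end, 75 bases. STAR alignment to mm10 was done by the authors, whose deposited table gives each gene an estimated count without normalization; the counting tool and annotation are not given in the sources used here. The deposited columns carry the numbers that open the sample titles. A second deposited table holds the authors' DESeq2 comparison and was not used. Estimated counts were rounded and fitted with edgeR 4.0.16 in R 4.3.3 (TMM, filterByExpr, quasi-likelihood test, Benjamini-Hochberg over 12828 genes). Intervals are unadjusted and rest on the spread between mice, with the variance of each gene drawn toward that of other genes. Alternatives were DESeq2 1.42.0, limma 3.58.1 (voom), other scalings and filters, a replicate block and leaving out each mouse; tests were tried on simulated data. No pair of libraries was alike within sampling noise (chi-square per gene at least 9.92). Each mouse is a separate sample, and no litters or batches are given.

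TPM used GENCODE vM21 (GRCm38): 23350 symbols matched directly, 669 through synonyms and 392 had no length, with 99.68% of counts covered. The named genes are the members, Kdm1a, list genes with an unadjusted p under 0.05 or among the 2 highest in TPM, other genes of the 3 lists where a count needs them, leading markers, and the 5 genes nearest to Murc and Cav3; Vwf and Robo4 were named after their values were seen. The members and lists were chosen with earlier results of these data known. Promoter motifs were chosen after the data were seen.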

Additional observations from a re-analysis of the deposited data

How the results depend on the processing

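Murc was not tested. Of the other 7 members, 0 passed the adjusted threshold under each of the 14 alternatives, and so did 0 genes of the 3 lists. The log2 fold changes of Kdm1a and the members other than Murc kept their direction and side of the threshold in 105 of 112 comparisons. The exceptions were Cav1 and Sdpr without WT replicate 2, and Kdm1a. With 1 mouse left out, Cav1 ranged from -0.21 to 0.0095 and Sdpr from -0.17 to 0.026. The Kdm1a call was lost without WT 2 and without each of the LSD1-mKO mice, fits with fewer samples, and with the replicate number as a block (adjusted p = 0.299 from edgeR); its value ranged from -1.30 to -1.17. The number of genes called, 2 by edgeR, was 42 with DESeq2, 11 without a filter on low counts, 1 with the replicate block and 1 to 3 with 1 mouse left out. The members without overlap, 2 of 8 with Murc included, numbered 1 with the library size alone. They numbered 2 to 5 with 1 mouse left out (5 without WT 1, 4 without LSD1-mKO 1), where fewer mice have to be apart. The share of all genes is not given for these fits. Under the block, 0 of the other 7 members had an unadjusted p under 0.05; deviations of same-numbered mice correlated at -0.352, -0.107 and -0.15 across 12828 genes, and 0 of 6 libraries correlated best with its own number, so mice of equal number were not treated as pairs. With the mean transcript length, Cav3 made up 16.4% of caveolin TPM in WT and 15.0% in LSD1-mKO. The values were 31.4% and 29.0% with the longest transcript, since Cav1 counts as shorter under the mean. The ratio of Murc to Cav3 could not move, because each has 1 coding transcript and so the same length in both settings.

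With 3 mice a group, the intervals of the other 7 members leave room for differences from 0.615-fold to 1.32-fold. Intervals rest on these mice only, with the variance of each gene drawn toward that of other genes.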
